A study of Mus musculus with 12 samples.

Results

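The genes described here are the translation initiation factors (eIF, symbols starting with Eif) and elongation factors (eEF, symbols starting with Eef) of mouse pancreatic islets, with the kinases, binding proteins and methyltransferases that carry the same prefixes. They were chosen by name from the deposited table. Of 73 rows whose name starts with Eif or Eef and a digit, Eef2, Eef2k and Eif2ak3 (3 genes) and 7 pseudogene rows ending in a -ps suffix were left out. Of the other 63 genes, 59 reached at least 10 counts in at least 3 of the 12 libraries, out of 48709 rows in all, and these 59 are the members. The 4 that did not were Eif4ebp3, with 21 counts in all, and Eif4e1b, Eif2c5 and Eif2s3y with 0 counts. A count of 0 allows up to 3 counts a library, or 0.0600 to 0.100 CPM (counts scaled to library size) at these depths. Eif2s3y is the Y-linked copy of an eIF2 subunit gene, and all libraries were labelled female. All 59 members passed the low-count filter of the test.

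RNA from whole islets was sequenced in 4 groups of 3 libraries. All 12 libraries, controls included, came from female mice of genotype NSG RIP-DTR Htz. In RIP-DTR mice the rat insulin promoter drives a receptor for diphtheria toxin in beta cells, and NSG mice are severely immunodeficient. The CTRL libraries were from untreated mice, and the DT libraries from mice given diphtheria toxin (DT) and sampled at 1, 3 or 5 DPA, which was taken to mean days after the ablation. The study followed the islets' response to partial beta cell loss. Nothing in the labels says whether a library was 1 mouse or a pool, nor whether replicates were separate mice.

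Protein synthesis starts when eIF2 carries the initiator tRNA to the small ribosomal subunit, together with eIF1, eIF1A, eIF3 and eIF5. The eIF4F complex (the cap-binding eIF4E, the scaffold eIF4G and the helicase eIF4A) brings this subunit to the capped end of an mRNA, and eIF5B then joins the large subunit. The eEF1 complex delivers aminoacyl-tRNAs during elongation. In beta cells, where insulin is made in very large amounts, phosphorylation of eIF2 under stress blocks its exchange factor eIF2B and slows initiation. Diphtheria toxin itself inactivates eEF2, the translocation factor, which is not among the members.

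Library totals ran from 29867083 to 50012558 counts. Markers of islet endocrine, acinar, duct, macrophage, stromal and endothelial cells were present in every library, and none of the 8 defining markers was at 0. Marker RNA levels differed between the groups. At 1 DPA, 6 of 8 beta cell, 6 of 8 endothelial, 8 of 10 macrophage and 3 of 6 duct markers were lower than in CTRL by the same test as below. Beta cell markers were also lower at 3 DPA (1 of 8) and at 5 DPA (4 of 8). Of all genes tested, 22.4% were called lower at 1 DPA, 2.37% at 3 DPA and 2.67% at 5 DPA, and 5.87% higher at 5 DPA. The summed macrophage markers ran from 129 to 582 CPM in CTRL, 98.5 to 128 at 1 DPA, 218 to 395 at 3 DPA and 630 to 895 at 5 DPA. Summed stromal markers, of which 2 of 10 were lower at 1 DPA and 2 higher at 5 DPA, ran from 771 to 2397, 768 to 1011, 1573 to 2287 and 3284 to 5625 CPM. CTRL replicate 3 held the lowest macrophage and stromal sums of its group. Summed acinar markers ran from 10988 to 68241 CPM in CTRL and 5819 to 50507 at 1 DPA. At 3 and 5 DPA they ran from 4667 to 13349 and 8915 to 33175 CPM, and 0 of 11 were called against CTRL at any time. Summed T and B cell markers ran from 0.241 to 27.6 CPM in CTRL and 0.236 to 0.539 at 1 DPA. They ran from 1.01 to 17.3 CPM at 3 DPA and 5.57 to 46.0 at 5 DPA. Only 2 of these 6 genes were tested, and 1 was lower at 1 DPA. Summed alpha cell markers ran from 20247 to 26154 CPM in CTRL and 14225 to 24515 at 1 DPA. At 3 and 5 DPA they ran from 30841 to 45095 and 20669 to 36211 CPM. Against CTRL 0 of 5 alpha markers were called at any time. Delta and PP markers summed to 7350 to 10689 CPM in CTRL and 6253 to 9092 at 1 DPA. They summed to 10550 to 13708 CPM at 3 DPA and 11462 to 13516 at 5 DPA, and 1 of 3 was higher at 3 DPA. The part of these marker differences in those of the members was not tested, and in bulk RNA fewer cells of a type cannot be told apart from less RNA per cell.

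Translation factor transcripts took a larger share of the raw counts after ablation, a share that also moves with what else a library holds. The 59 members together held 0.884 to 0.919% of a library's counts in CTRL, 0.956 to 1.11% at 1 DPA, 1.01 to 1.12% at 3 DPA and 0.957 to 1.03% at 5 DPA. Every DT library lay above every CTRL library. In counts without the 50 most abundant genes, 1 of them a member, the share was 0.912 to 0.928% in CTRL. It was then 1.04 to 1.11% at 1 DPA, 1.04 to 1.11% at 3 DPA and 0.960 to 1.00% at 5 DPA. In the scaled test below, the members' median log2 fold change at 5 DPA was 0.02, beside 0.01 over all genes tested. Eef1a1, the largest contributor, made up 32.4% ± 0.809 (SD, n = 3) of the members' counts in CTRL and 22.2% ± 1.34 (SD, n = 3) at 1 DPA.

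A gene was called when its adjusted p (edgeR quasi-likelihood test, Benjamini-Hochberg over all 17294 genes tested) was under 0.05. At 1 DPA, 31 of the 59 members rose against CTRL and 8 fell, where 29.2% of all genes tested were called higher and 22.4% lower. The members' median log2 fold change was 0.20, beside -0.05 over all genes tested. At 3 DPA, 15 members rose, where 10.2% of all genes were called higher. At that time 0 fell in edgeR, DESeq2 or limma-voom, with 2 lower at an unadjusted edgeR p under 0.05, beside 2.37% of all genes called lower. The median was 0.11, beside -0.01 over all genes. At 5 DPA, 2 members rose, which is below the 5.87% of all genes called higher as a share. None fell in edgeR or limma-voom (3 at an unadjusted edgeR p under 0.05, and 1 in DESeq2), beside 2.67% of all genes called lower, and the median was 0.02 beside 0.01. The 3 comparisons share the same 3 CTRL libraries. A test over all 4 groups together called 43 of the 59 members, beside 57.4% of all genes.

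**Figure D1:**
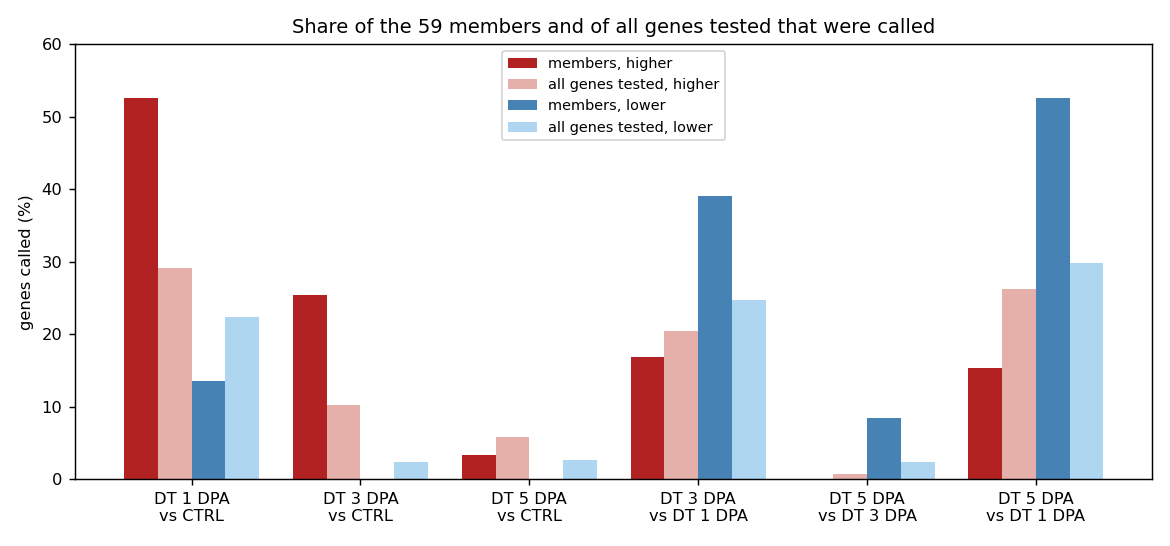
Percent of genes called higher (red) or lower (blue) in each of the 6 comparisons, dark bars for the 59 members and pale bars for all 17294 genes tested. The dark red bar stands above the pale one at 1 and 3 DPA against CTRL, and the members' bars at 5 DPA against CTRL are short.

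The 1 DPA counts depend on how libraries are scaled. With library sizes taken without the 50 most abundant genes, the median of all genes at 1 DPA moved from -0.05 to -0.17, a shift of -0.13. The share of all calls that were higher then moved from 56.6% to 43.4%. The members then gave 26 higher and 12 lower. Under that scaling Eif1ax, Eif3b, Eif3l, Eif4g1 and Eif5a lost their call, and Eif2a, Eif3f, Eif3h and Eif3i were called lower. Of the 39 members called at 1 DPA, 34 kept their call and direction. On the authors' TPM values, the median log2 ratio of 1 DPA to CTRL means was 0.17 over all genes tested and 0.44 over the members. All 31 members that rose on counts had a higher mean TPM at 1 DPA, and 7 of the 8 that fell had a lower one, the exception being Eif2s3x. The TPM falls were small, with a median log2 ratio of -0.09 over these 8. For each of the 8, the TPM values at 1 DPA overlapped those of CTRL.

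The members were sorted by their calls against CTRL at the 3 times. Eif1a and Eif4e (2 members) were higher at all 3 times. A set of 12 was higher at 1 and 3 DPA and not called at 5 DPA, and 17 were called higher at 1 DPA and not at 3 or 5 DPA. In the direct test of 3 against 1 DPA, 14 of these 17 were lower at 3 DPA, while Eif1ax, Eif3l and Eif5a were not called. All 8 members that fell did so at 1 DPA and were not called against CTRL later, and 7 of them were higher at 3 than at 1 DPA, with Eif4ebp2 not called. The sorting used the same 1 and 3 DPA libraries as the direct test, which favours these directions. In that test 24.7% of all genes were lower at 3 DPA and 20.4% higher. The share among all genes of the same call pattern was not computed. Eif4a1 was called at 3 DPA and not at 1 or 5 DPA, and 19 members were called at no time against CTRL. The plot of all members' fold changes shows these patterns by role.

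**Figure D2:**
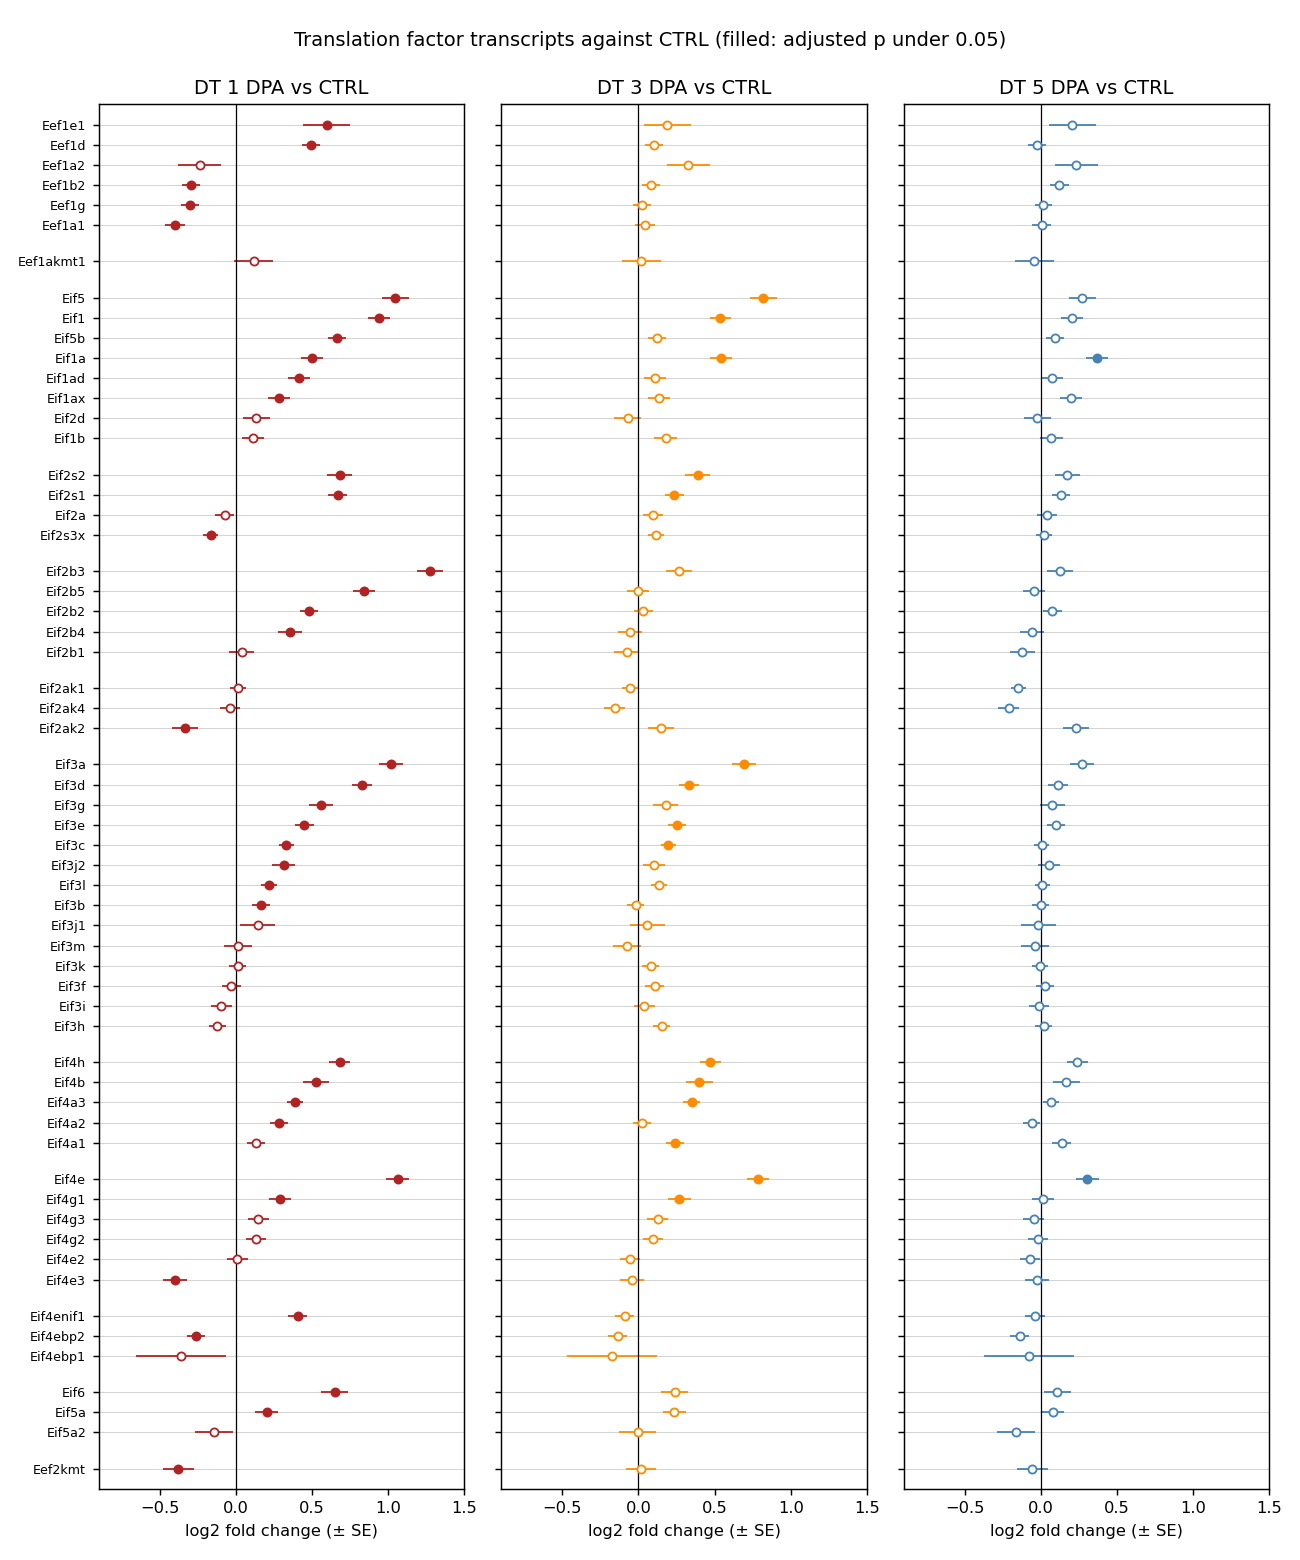
Log2 fold change (± SE) of each of the 59 members against CTRL at 1, 3 and 5 DPA, grouped by role and ordered within a role by the 1 DPA value, with filled points for called genes. Most filled points lie right of 0 at 1 DPA, fewer at 3 DPA, and only Eif1a and Eif4e are filled at 5 DPA.

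Most genes grouped here under scanning and start codon choice rose early. Of the 8 genes in this set, which also takes in Eif5b, Eif1ad and Eif2d, 6 were higher at 1 DPA, with a median log2 fold change of 0.45. Counts by role, here and below, stand beside 29.2% of all genes called higher and 22.4% lower at 1 DPA. At 3 DPA those shares were 10.2% and 2.37%. Eif1 (chr11:100319885-100322096, plus strand, mm10), whose product keeps the scanning ribosome open and guards start codon choice, was measured at 279, 303 and 293 CPM in CTRL. It was at 557, 537 and 584 CPM at 1 DPA, 466, 392 and 415 at 3 DPA, and 328, 346 and 335 at 5 DPA. Every DT library lay above every CTRL library, and the 3 times did not overlap one another. The log2 fold change was 0.94 ± 0.07 (SE; edgeR adjusted p = 9.75e-07) at 1 DPA and 0.54 ± 0.07 (0.000334) at 3 DPA. At 5 DPA the value of 0.20 ± 0.07 was not called (edgeR adjusted p = 0.0962, and 0.0419 in DESeq2).

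Eif5 (chr12:111538016-111546752, plus strand) encodes the GTPase activator that makes eIF2 release its GTP once the start codon is found. Its libraries read 178, 172 and 190 CPM in CTRL, 350, 357 and 409 at 1 DPA, 362, 300 and 292 at 3 DPA, and 220, 214 and 219 at 5 DPA. Levels at 1 and 3 DPA overlapped each other and stood clear of CTRL. The log2 fold changes were 1.05 ± 0.09 (edgeR adjusted p = 2.08e-06), 0.82 ± 0.09 (8.14e-05) and 0.27 ± 0.09 (0.0762, not called).

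Eif5b, the subunit-joining GTPase, rose at 1 DPA, from 75.1 to 77.8 CPM in CTRL to 114 to 127 CPM (log2 0.66 ± 0.06, edgeR adjusted p = 3.23e-06). Its exons overlap those of Rev1 on the other strand, and Rev1 also rose (log2 1.41). Whether the counting used strand is not given in the sources used here, so reads of this pair may be mixed. Eif1a, which helps eIF1 in scanning, was called at all 3 times. It read 32.4, 35.9 and 36.1 CPM in CTRL, 47.5, 48.7 and 51.3 at 1 DPA, 54.8, 47.7 and 49.6 at 3 DPA and 46.7, 42.3 and 45.8 at 5 DPA. All 9 DT libraries lay above CTRL, with log2 fold changes of 0.50 ± 0.07, 0.54 ± 0.07 and 0.37 ± 0.07 (edgeR adjusted p = 0.000115, 0.00033 and 0.011). The 5 DPA call ended without DT 5 DPA replicate 1 (edgeR adjusted p = 0.0538). Eif1a and its X-linked copy Eif1ax are near-identical, so their reads can be split between them. Eif1ax (log2 0.28) and Eif1ad (0.41) also rose at 1 DPA, although Eif1ax lost its call without DT 1 DPA replicate 3 (edgeR adjusted p = 0.0717). Eif1b (0.11) and the alternative initiator tRNA carrier Eif2d (0.13) were not called.

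Of the 3 subunit genes of eIF2, 2 rose and 1 fell at 1 DPA. Eif2s1 encodes the alpha subunit that stress kinases phosphorylate. It read 31.6, 33.6 and 32.6 CPM in CTRL, 50.5, 50.4 and 54.5 at 1 DPA, 40.1, 36.1 and 38.9 at 3 DPA and 36.6, 34.4 and 36.1 at 5 DPA. The 1 DPA libraries stood above all others, and the 3 DPA libraries above CTRL. Its log2 fold change was 0.67 ± 0.06 (edgeR adjusted p = 4.04e-06) at 1 DPA and 0.24 ± 0.06 (0.0247) at 3 DPA. The beta subunit gene Eif2s2 rose by log2 0.68 ± 0.08 at 1 DPA (edgeR adjusted p = 2.93e-05) and 0.39 ± 0.08 at 3 DPA (0.00703). The gamma subunit gene Eif2s3x, which carries the GTP and tRNA site, fell by 0.17 on the log2 scale at 1 DPA (edgeR adjusted p = 0.0167), with 143, 150 and 139 CPM in CTRL and 128 CPM in each 1 DPA library. Its direction turned with the scale, since its TPM was 81.6 ± 1.77 in CTRL and 85.3 ± 10.9 at 1 DPA (SD, n = 3 each). On these length-scaled values Eif2s3x made up 67.8% ± 0.49 of the 3 subunits' transcripts in CTRL and 54.1% ± 0.609 at 1 DPA (SD, n = 3 each). It stayed the most abundant of the 3 per length in both groups. Eif2a, an unrelated factor that can also deliver initiator tRNA, was not called at 1 DPA (-0.07). Its exons overlap those of Serp1 on the other strand, which had far more counts (147367 beside 18540 in all) and fell at 1 DPA (log2 -0.64). Reads of this pair may be mixed.

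Most genes of the exchange factor eIF2B rose at 1 DPA and were lower again at 3 DPA in the direct test of these times. Its genes Eif2b2, Eif2b3, Eif2b4 and Eif2b5 (4 of 5) rose at 1 DPA, and none was called at 3 or 5 DPA by edgeR, DESeq2 or limma-voom, with 1 at an unadjusted edgeR p under 0.05 at 3 DPA and 0 at 5 DPA. Eif2b3 (chr4:117019402-117087306, plus strand), the gamma subunit, had the largest change of all 59 members. It read 11.5, 10.01 and 11.9 CPM in CTRL, 28.0, 25.3 and 27.6 at 1 DPA, 13.0, 13.8 and 13.4 at 3 DPA and 12.7, 11.96 and 11.7 at 5 DPA. The 1 DPA libraries stood far above the other 9. This was a 2.42-fold rise (log2 1.28 ± 0.09, edgeR adjusted p = 4.7e-07), with later values of 0.27 ± 0.09 (0.0646) and 0.12 ± 0.09 (0.42).

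Eif2b5 (chr16:20498817-20509323, plus strand) encodes epsilon, the catalytic subunit. In CTRL it read 45.8, 49.8 and 45.6 CPM, and 1 day after ablation 89.2, 76.0 and 88.1 CPM. The 3 DPA libraries (45.8, 49.0 and 46.1) and the 5 DPA libraries (47.3, 43.1 and 46.4) both overlapped CTRL. The 1 DPA change was log2 0.84 ± 0.07 (edgeR adjusted p = 2.27e-06), and the 3 DPA value was 0.00 ± 0.07 (0.984). Eif2b2 rose by log2 0.48 ± 0.06 (edgeR adjusted p = 4.41e-05) and Eif2b4 by 0.36, while the alpha subunit gene Eif2b1, outside the catalytic subcomplex, was not called (0.04 ± 0.08). Eif2b4 shares exon bases with Snx17 on the other strand, and Snx17 was not called. On TPM values Eif2b3 was the scarcest eIF2B transcript throughout, at 3.48% ± 0.369 of the 5 in CTRL and 5.75% ± 0.153 at 1 DPA (SD, n = 3 each).

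None of the 3 eIF2 kinase genes among the members rose against CTRL at any time in edgeR, DESeq2 or limma-voom (1 was higher at an unadjusted edgeR p under 0.05, at 5 DPA). Eif2ak2 (PKR, which senses double-stranded RNA) fell at 1 DPA. Its CTRL libraries read 32.9, 36.2 and 30.8 CPM, those of 1 DPA 26.1, 26.7 and 26.6, those of 3 DPA 33.7, 38.6 and 38.5, and those of 5 DPA 37.6, 36.4 and 43.2. The 1 DPA libraries were the 3 lowest of the 12. The change was log2 -0.33 ± 0.09 (edgeR adjusted p = 0.00689). Eif2ak4 (GCN2, which senses uncharged tRNA) gave -0.04 ± 0.07 at 1 DPA, -0.16 ± 0.07 at 3 DPA and -0.21 ± 0.07 at 5 DPA (edgeR adjusted p = 0.642, 0.17 and 0.0725). The 5 DPA value was called lower in DESeq2 (adjusted p = 0.042), without CTRL replicate 1 (edgeR adjusted p = 0.0405) and without DT 1 DPA replicate 3 (0.0455). Eif2ak1 (HRI, the heme-sensing kinase) was not called at 1 DPA (0.01).

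**Figure D3:**
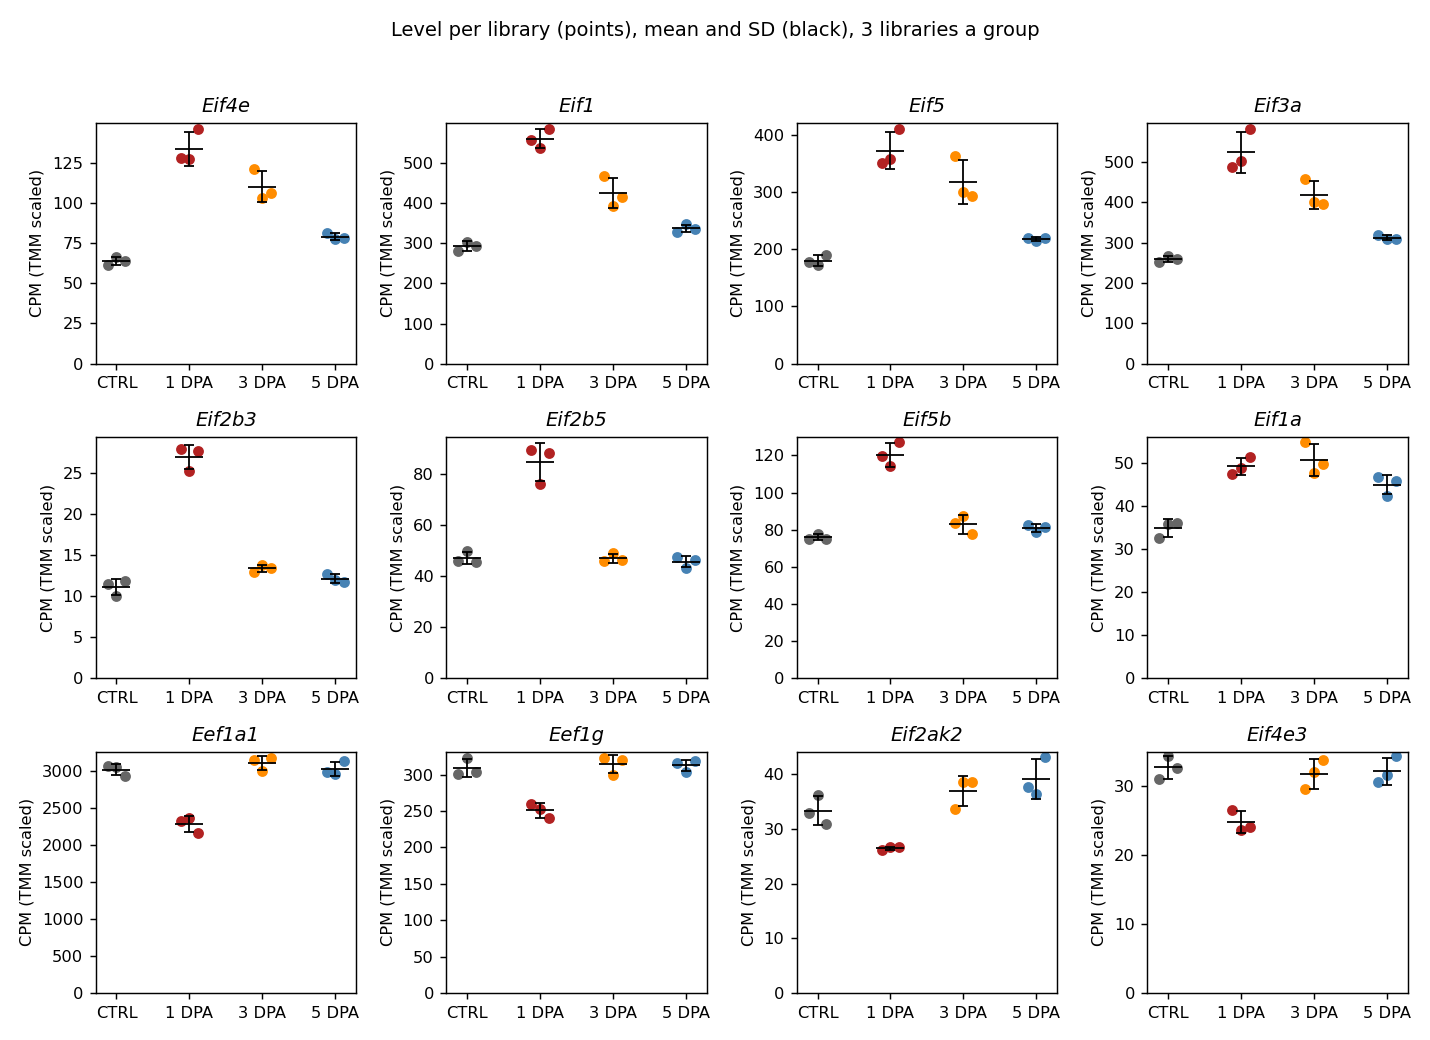
TMM-scaled CPM of 12 members in each library (points) with the group mean and SD (black), from 0 upwards. Eif2b3, Eif2b5 and Eif5b are higher at 1 DPA than at the other times, Eif4e, Eif1, Eif5 and Eif3a step down from 1 to 5 DPA, and Eef1a1, Eef1g, Eif2ak2 and Eif4e3 dip at 1 DPA.

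The eIF3 complex, the scaffold that holds the small subunit and the other factors together, split by subunit. Of its 14 genes 8 rose at 1 DPA and 4 at 3 DPA. None fell at 1 DPA in edgeR, DESeq2 or limma-voom, with 1 lower (Eif3h) at an unadjusted edgeR p under 0.05. Eif3a (chr19:60761117-60790658, minus strand), the largest subunit, read 251, 266 and 259 CPM in CTRL, 487, 502 and 580 at 1 DPA, 457, 399 and 396 at 3 DPA, and 319, 309 and 308 at 5 DPA. No group overlapped another, and each later time was lower than the one before. Its log2 fold changes were 1.02 ± 0.08 (edgeR adjusted p = 1.1e-06), 0.69 ± 0.08 (0.000117) and 0.27 ± 0.08 (0.053). The 5 DPA value was on the other side of the threshold in DESeq2 (0.0155) and limma-voom (0.0463).

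Eif3d, which can itself contact the cap of some mRNAs, read 80.6, 82.0 and 84.7 CPM in CTRL, 148, 137 and 154 at 1 DPA, 113, 97.9 and 100.2 at 3 DPA and 90.5, 84.8 and 92.3 at 5 DPA. The 1 and 3 DPA libraries were all above CTRL. It rose by log2 0.83 ± 0.07 at 1 DPA (edgeR adjusted p = 1.68e-06) and 0.33 ± 0.07 at 3 DPA (0.00597). Eif3e rose by 0.45 ± 0.06 and 0.25 ± 0.06 at these times (edgeR adjusted p = 6.55e-05 and 0.0145). Eif3g (log2 0.56), Eif3c (0.33), Eif3j2 (0.31), Eif3l (0.22) and Eif3b (0.16) made up the rest of the 1 DPA set. Eif3b lost its call without any 1 CTRL library, without DT 1 DPA replicate 1 or 3 and without DT 3 DPA replicate 1 (edgeR adjusted p up to 0.186). The subunits Eif3f, Eif3h, Eif3i, Eif3k, Eif3m and Eif3j1 were not called at 1 DPA, with log2 values from -0.12 (Eif3h) to 0.14 (Eif3j1). Eif3j1 and Eif3j2 are near-identical copies, so the division of reads between them is uncertain. Per length, Eif3h was the most abundant eIF3 transcript in CTRL (171 ± 7.07 TPM), and Eif3a at 1 DPA (258 ± 58.1 TPM, SD, n = 3 each).

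In the cap-binding complex, the main cap-binding protein led. Eif4e (chr3:138526179-138559696, plus strand) read 61.2, 66.5 and 64.0 CPM in CTRL. It read 128, 127 and 146 CPM at 1 DPA, 121, 103 and 106 at 3 DPA, and 81.3, 77.5 and 77.9 at 5 DPA. No group overlapped another. This was a 2.09-fold rise at 1 DPA (log2 1.06 ± 0.07, edgeR adjusted p = 5.97e-07), with 0.79 ± 0.07 at 3 DPA (4.04e-05) and 0.30 ± 0.07 at 5 DPA (0.0288). The 5 DPA call ended without any 1 of the CTRL or DT 5 DPA libraries. The edgeR adjusted p was then 0.0702, 0.0666 and 0.0677 without CTRL replicate 1, 2 and 3. It was 0.113, 0.0572 and 0.064 without DT 5 DPA replicate 1, 2 and 3.

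Its paralogs did not follow. Eif4e3, a weaker cap binder, read 31.1, 34.4 and 32.7 CPM in CTRL and 26.6, 23.7 and 24.1 at 1 DPA, the 3 lowest of the 12 libraries. It fell by 0.40 on the log2 scale (SE 0.08, edgeR adjusted p = 0.00108), and Eif4e2, a repressor of capped mRNAs, was not called (0.01). Within each library, on TPM, Eif4e made up 37.7% ± 0.186 of the 3 paralogs' transcripts in CTRL, 60.6% ± 2.18 at 1 DPA, 51.8% ± 3.23 at 3 DPA and 43.5% ± 1.77 at 5 DPA. Eif4e3 went from 46.2% ± 0.273 through 26.9% ± 2.13 and 35.8% ± 3.07 to 42.3% ± 1.66 (SD, n = 3 each). Eif4e3 was thus the most abundant of the 3 transcripts per length in CTRL, and Eif4e at 1 DPA. The shares stand on unlike summed levels and carry no test.

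**Figure D4:**
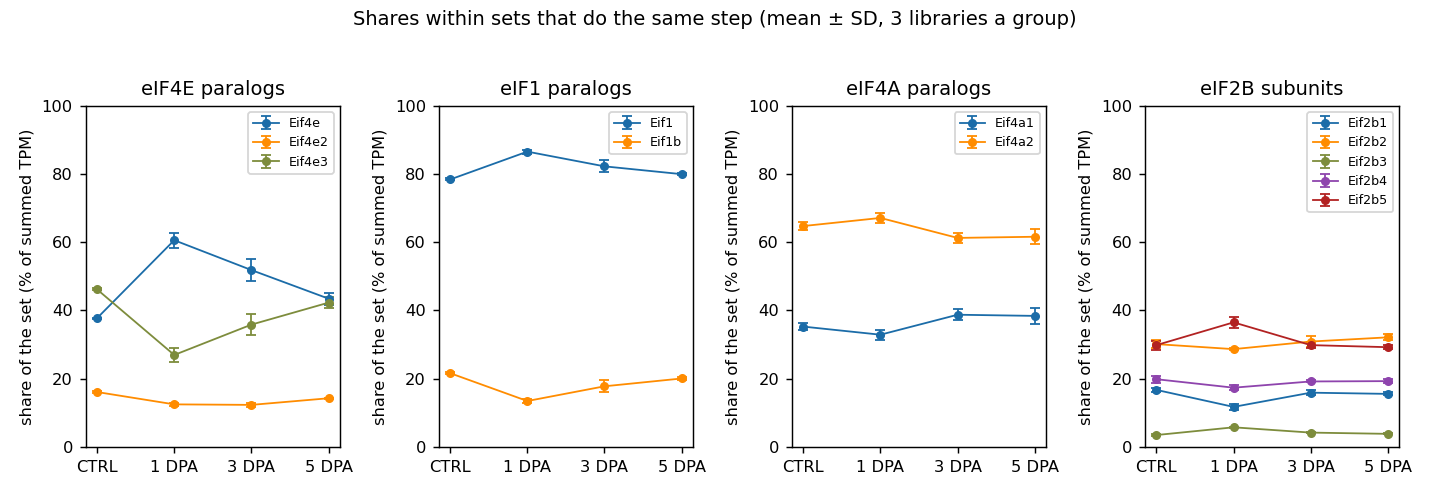
Share of each gene in the summed TPM of its set (mean ± SD, 3 libraries a group) for the eIF4E, eIF1 and eIF4A paralogs and the eIF2B subunits. The Eif4e line rises from 37.7% to 60.6% at 1 DPA and returns towards CTRL, the Eif4e3 line mirrors it, and the eIF4A lines stay within 32.9 to 38.7% for Eif4a1.

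Other paralog sets moved less. Eif1 went from 78.4% ± 0.291 of the Eif1 and Eif1b pair in CTRL to 86.5% ± 0.615 at 1 DPA. Eif4a1 held 35.3% ± 1.12 of the Eif4a1 and Eif4a2 pair in CTRL and 38.7% ± 1.59 at 3 DPA (SD, n = 3 each). Eef1a1 held 96.1 to 96.8% of the eEF1A pair in every group mean, and Eif5a held 96.2 to 96.99% of the eIF5A pair.

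The scaffold Eif4g1 read 499, 517 and 496 CPM in CTRL, 571, 598 and 681 at 1 DPA, 634, 608 and 578 at 3 DPA and 535, 492 and 499 at 5 DPA. The 1 and 3 DPA libraries lay above CTRL and the 5 DPA libraries overlapped it. The log2 fold change was 0.29 ± 0.07 at 1 DPA (edgeR adjusted p = 0.00616) and 0.27 ± 0.07 at 3 DPA (0.0321). The 1 DPA call ended without DT 1 DPA replicate 3 (edgeR adjusted p = 0.0675). The related scaffolds Eif4g2 (0.13) and Eif4g3 (0.15) were not called at 1 DPA.

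Of the helicases and their helpers, 4 of 5 rose at 1 DPA and 4 of 5 at 3 DPA. Eif4h, a helper of eIF4A, rose by log2 0.68 ± 0.07 (edgeR adjusted p = 8.52e-06) and then 0.47 ± 0.07 (0.000706). Eif4b, another helper, rose by 0.53 ± 0.09 (edgeR adjusted p = 0.000353) and 0.40 ± 0.09 (0.00922). Eif4a3, which marks exon junctions rather than driving initiation, rose by 0.39 ± 0.05 and 0.35 ± 0.05 (edgeR adjusted p = 9.04e-05 and 0.00101). Eif4a2, one of the initiation helicases, read 466, 471 and 503 CPM in CTRL, 595, 585 and 573 at 1 DPA, 470, 500 and 493 at 3 DPA and 448, 475 and 458 at 5 DPA. It rose at 1 DPA (log2 0.28 ± 0.06, edgeR adjusted p = 0.00137) and was lower again at 3 than at 1 DPA (-0.26, 0.00313). Eif4a1, its paralog, read 210, 216 and 210 CPM in CTRL, 219, 240 and 238 at 1 DPA, 260, 244 and 247 at 3 DPA and 248, 218 and 234 at 5 DPA. It was called at 3 DPA (log2 0.24 ± 0.06, edgeR adjusted p = 0.0227), beside 0.13 ± 0.06 at 1 DPA (0.0907) and 0.14 ± 0.06 at 5 DPA (0.196). The 1 and 3 DPA levels of Eif4a1 were not called different (edgeR adjusted p = 0.172).

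The 3 DPA calls lean on 1 library more than the 1 DPA calls do. Without DT 3 DPA replicate 1, which had the highest value of its group for Eif1, Eif5, Eif3a, Eif4e and Eif2s2, 8 members were higher at 3 DPA in place of 15. Those that lost their call were Eif2s1, Eif3c, Eif3d, Eif3e, Eif4a1, Eif4b and Eif4g1, with edgeR adjusted p = 0.0547 for Eif3d and 0.208 for Eif2s1. The calls of Eif2s1, Eif3c, Eif4a1 and Eif4g1 also ended without any 1 CTRL library. Leaving out CTRL replicate 1 also ended that of Eif3e (edgeR adjusted p = 0.058), and leaving out CTRL replicate 2 that of Eif4b (0.0683). Without DT 3 DPA replicate 3 the calls of Eif2s1, Eif3c and Eif4a1 ended, without DT 3 DPA replicate 2 that of Eif4g1 (0.0752), and without DT 1 DPA replicate 3 that of Eif3c (0.0589). Eif1, Eif1a, Eif3a, Eif4a3, Eif4e, Eif4h and Eif5 kept their 3 DPA call whichever single library was left out, as did Eif2s2. Eif2s2 lost it in a fit of only the CTRL and 3 DPA groups (edgeR adjusted p = 0.0641).

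Of the 3 genes for proteins that bind and restrain eIF4E, 1 fell, 1 rose and 1 was not called at 1 DPA. Eif4ebp2, a repressor released from eIF4E when mTOR phosphorylates it, read 42.3, 42.3 and 41.7 CPM in CTRL and 33.0, 36.1 and 36.2 at 1 DPA. It fell by 0.26 on the log2 scale (SE 0.06, edgeR adjusted p = 0.00397), with no overlap between these groups. Its TPM was 51.0 ± 2.78 in CTRL and 50.05 ± 8.56 at 1 DPA (SD, n = 3 each), with overlap. Eif4ebp1 varied widely between replicates, at 12.1, 10.9 and 7.38 CPM in CTRL, 9.58, 9.37 and 4.63 at 1 DPA, 11.7, 7.07 and 8.16 at 3 DPA and 8.02, 9.002 and 11.7 at 5 DPA. Its log2 values of -0.36 ± 0.30, -0.17 ± 0.29 and -0.08 ± 0.29 were not called (edgeR adjusted p = 0.324, 0.781 and 0.9). Eif4enif1, which carries eIF4E into the nucleus and to repressed mRNAs, rose at 1 DPA (log2 0.41 ± 0.06, edgeR adjusted p = 0.000263).

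Among the late factors, Eif6, which keeps the large subunit from joining too early, read 45.5, 46.8 and 41.8 CPM in CTRL and 71.1, 64.9 and 74.4 at 1 DPA. It rose by log2 0.65 ± 0.09 at 1 DPA (edgeR adjusted p = 7.26e-05) and was not called at 3 DPA (0.24 ± 0.09, 0.107) or 5 DPA (0.11 ± 0.09, 0.497). Eif5a, the hypusine-bearing factor that helps stalled ribosomes, read 254, 260 and 227 CPM in CTRL and 277, 266 and 310 at 1 DPA. Its 1 DPA change of log2 0.20 ± 0.07 passed narrowly (edgeR adjusted p = 0.0387). The call ended without any 1 CTRL library (0.124, 0.103 and 0.124) and without DT 1 DPA replicate 1 (0.0585) or 3 (0.401). It also ended without DT 3 DPA replicate 1 (0.14) or 3 (0.0502) and without DT 5 DPA replicate 1 (0.0514). At 3 DPA Eif5a gave 0.24 ± 0.07 (edgeR adjusted p = 0.0577, 0.0454 in DESeq2), and at 5 DPA 0.08 ± 0.07 (0.561). Eif5a2 was not called.

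Of the 6 genes grouped here under eEF1, 3 fell at 1 DPA, 2 rose and 1 was not called. Over all genes tested, 22.4% were called lower and 29.2% higher at that time. Eef1a1 (chr9:78478449-78489151, minus strand), which delivers aminoacyl-tRNA to the ribosome, was the most abundant member per length (2625 ± 136 TPM in CTRL, SD, n = 3). Its libraries read 3075, 3053 and 2943 CPM in CTRL, 2333, 2366 and 2169 at 1 DPA, 3154, 2999 and 3185 at 3 DPA and 2989, 2969 and 3144 at 5 DPA. The 1 DPA libraries lay below all 9 others, which overlapped one another. The change was log2 -0.40 ± 0.06 at 1 DPA (edgeR adjusted p = 0.000271), 0.04 ± 0.06 at 3 DPA (0.749) and 0.01 ± 0.06 at 5 DPA (0.974). Eef1a1 has many pseudogene copies, and reads shared with them may have been lost or split.

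The eEF1A exchange factor subunits did not move together. Eef1g fell from 300, 323 and 304 CPM to 260, 253 and 240 (log2 -0.30 ± 0.06, edgeR adjusted p = 0.00086). Eef1b2, a nucleotide exchange subunit, fell from 141, 131 and 127 CPM to 112, 108 and 105 (-0.29 ± 0.06, 0.00157). Eef1d, the other exchange subunit, rose instead from 60.1, 65.8 and 61.7 CPM to 90.1, 85.6 and 88.0 (0.49 ± 0.06, 3.26e-05). In CPM no 1 DPA library of these 3 genes overlapped CTRL, while on TPM those of Eef1g and Eef1b2 did. Eef1e1, a small scaffold protein of the tRNA synthetase complex, rose from 4.94, 6.77 and 5.79 CPM to 10.1, 8.52 and 7.80 (0.60 ± 0.15, 0.00695). None of the 6 eEF1 genes was called at 3 or 5 DPA in edgeR, DESeq2 or limma-voom (1 higher at an unadjusted edgeR p under 0.05 at 3 DPA, 0 at 5 DPA). Exons of Eef1b2 overlap Ndufs1 on the other strand, which rose (log2 0.28), and those of Eef1d overlap Naprt on the same strand, which was not called (0.32).

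Eef1a2, the eEF1A form of muscle and neurons, gave a log2 value of -0.24 ± 0.14 at 1 DPA, 0.33 ± 0.14 at 3 DPA and 0.23 ± 0.14 at 5 DPA, none called against CTRL (edgeR adjusted p = 0.181, 0.178 and 0.353). Eef2kmt, a methyltransferase of eEF2, read 27.9, 26.7 and 29.0 CPM in CTRL and 23.9, 22.0 and 18.3 at 1 DPA. It fell by 0.38 on the log2 scale (SE 0.10, edgeR adjusted p = 0.00831). Its exons overlap those of Alg1 on the other strand, which also fell (-0.33). Eef1akmt1, a methyltransferase of eEF1A, was not called (0.12).

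Compared directly, 1 and 3 DPA differed at 33 members, 10 higher and 23 lower at 3 DPA, where 20.4% of all genes were called higher and 24.7% lower. Between 1 and 5 DPA, 9 were higher and 31 lower at 5 DPA, beside 26.3% and 29.8% of all genes. Without the 50 most abundant genes in the library sizes, the medians of all genes moved by 0.11 and 0.15 in these 2 comparisons. The members' counts were then 15 higher and 14 lower, and 15 higher and 22 lower. Eif2b3 fell by 1.01 and Eif2b5 by 0.85 on the log2 scale from 1 to 3 DPA (edgeR adjusted p = 6.12e-06 for both). Eef1a1 rose by 0.44 over the same interval (edgeR adjusted p = 0.000199).

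From 3 to 5 DPA, 5 members fell, where 2.46% of all genes were called lower. They were Eif5 (log2 -0.55, edgeR adjusted p = 0.0126), Eif4e (-0.48, 0.0119), Eif3a (-0.42, 0.0217), Eif1 (-0.33, 0.0315) and Eif4a3 (-0.28, 0.0228). None rose in edgeR, DESeq2 or limma-voom, and 0 were higher at an unadjusted edgeR p under 0.05, beside 0.711% of all genes called higher. In the fit with the replicate number as a block, 4 fell, and Eif1 lost its call. All 5 calls ended, leaving 0 (edgeR adjusted p up to 0.184), without DT 3 DPA replicate 1 and without any 1 of DT 5 DPA replicates 1, 2 and 3. Without DT 3 DPA replicate 3, 3 remained, and Eif1 was also lost without CTRL replicate 1 or 2.

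The promoters of the members were read from RefSeq (GRCm38.p6, the mm10 assembly), as 250 bases before to 50 bases after each annotated start. An entry was found for 46 of the 59 members. They were richer in G and C than all promoters, with a median of 62.3% beside 52.8% over 27025 genes. Those 27025 were not limited to genes expressed in islets. No motif share was computed for promoters matched in G and C, so the motif shares below do not show an enrichment beyond base content. The letters CACGTG, an E-box that MYC and its relatives can bind, read the same on both strands. They occurred in 10 of the 46 members (21.7%) and in 8.09% of all genes. It was held by 5 of the 25 members with an entry that were higher at 1 DPA, by 5 of the 15 not called then, among them Eif4a1, and by 0 of the 6 that were lower. Of the 12 that were higher at both 1 and 3 DPA, 4 held it. The windows printed here are from those 4 genes, the E-box in capitals, and from Eif3k, which held it and was not called.

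Eif4e, chr3:138527190-138527223, plus strand: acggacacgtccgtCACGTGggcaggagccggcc
Eif4g1, chr16:20672659-20672692, plus strand: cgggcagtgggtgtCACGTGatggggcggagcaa
Eif4h, chr5:134639486-134639519, minus strand: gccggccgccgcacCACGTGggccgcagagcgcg
Eif3a, chr19:60790664-60790685, minus strand: cgccgcgagggaatCACGTGgt
Eif3k, chr7:28981913-28981946, minus strand: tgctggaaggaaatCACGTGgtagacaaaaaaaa

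In Eif4e, Eif4g1, Eif4h and Eif3k the printed E-box began 64, 54, 96 and 44 bases before the annotated start, and in Eif3a 22 bases after it. These starts are RefSeq's, and the GENCODE gene spans begin elsewhere. By GENCODE the printed windows of Eif4e and Eif4g1 lie inside the gene, and that of Eif3a lies before it. Eif4e and Eif4g1 each held another copy, not printed. The letters CCGGAAGT, an ETS factor motif, were found on either strand in 9 of 46 members (19.6%) and 4.31% of all genes. The amino acid response letters TGATGNAAN were found on either strand only in Eif2s3x (2.17% of members, 4.5% of all genes).

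Many translation factor mRNAs are known to start with a C followed by a pyrimidine tract (a TOP motif), through which mTOR controls them. A C followed by 4 pyrimidines at the annotated start was found in 2 of 46 members, Eif2s3x and Eif3f (4.35%, beside 3.01% of all genes). A run of 8 or more pyrimidines touching the 20 bases on either side of the start was found in 12 of 46 (26.1%, beside 23.7%). Windows of 30 bases before to 20 after the start show the tract in capitals for Eif2s3x, which fell at 1 DPA, and Eif2b5, which rose. The Eef1a1 window is not shown, as the letters of a TATA box lay 24 bases after its annotated start.

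Eif2s3x, chrX:94212632-94212681, minus strand: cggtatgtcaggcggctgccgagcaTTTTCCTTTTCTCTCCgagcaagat
Eif2b5, chr16:20498787-20498836, plus strand: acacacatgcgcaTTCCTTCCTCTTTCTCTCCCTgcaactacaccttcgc

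The tract of Eif2b5 was 21 bases long and lay across and before the start. The annotated starts were not checked against these reads. No match in such a window says only that the letters are not there.

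Other genes of protein synthesis were read from 4 lists, whose counts stand beside 29.2% of all genes called higher and 22.4% lower at 1 DPA. Those shares were 10.2% and 2.37% at the 3 DPA time, then 5.87% and 2.67% for 5 DPA libraries. Of 6 termination and recycling genes, all 6 rose at 1 DPA (median log2 0.41), 3 at 3 DPA and 1 at 5 DPA. They included Hbs1l, which helps rescue stalled ribosomes (log2 1.19 ± 0.08 at 1 DPA, 0.59 ± 0.08 at 3 DPA and 0.30 ± 0.08 at 5 DPA, edgeR adjusted p = 0.0404 at the last), Etf1, the release factor that reads stop codons (0.51 ± 0.06 at 1 DPA), and Abce1, which splits ribosomes (0.48 ± 0.08). Of 29 regulators and partners, 13 rose and 5 fell at 1 DPA. At 3 DPA 2 rose and 2 fell, and at 5 DPA 1 rose and 2 fell. These later counts are too small to set apart from the shares over all genes. Ppp1r15a (GADD34), which directs the removal of the stress phosphate from eIF2, was at 40.5 ± 9.41 CPM in CTRL, 126 ± 2.61 at 1 DPA, 91.3 ± 15.97 at 3 DPA and 61.4 ± 3.14 at 5 DPA (SD, n = 3 each). Its log2 fold changes of 1.63, 1.17 and 0.60 were all called (edgeR adjusted p = 0.0367 at 5 DPA). The scanning helicases Dhx29 (1.13 ± 0.08) and Ddx3x (0.90 ± 0.06) rose at 1 DPA. Mknk1, a kinase of eIF4E, fell by 0.41 on the log2 scale at 3 DPA (edgeR adjusted p = 0.0284). Larp1, a repressor of TOP mRNAs, fell by 0.29 on the log2 scale at 1 DPA and by 0.24 at 5 DPA.

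Of 6 mitochondrial translation factors, 4 rose at 1 DPA and 1 at 3 DPA, among them the elongation factor Tufm (log2 0.57 ± 0.08 at 1 DPA) and the initiation factor Mtif3 (0.70 ± 0.09). Of 20 cytosolic aminoacyl-tRNA synthetases, 7 rose and 6 fell at 1 DPA, 2 rose at 3 DPA and 1 at 5 DPA, with a 1 DPA median of -0.03, shares close to those over all genes. Rars, which charges arginine tRNA, rose at all 3 times (log2 0.87 ± 0.06, 0.57 ± 0.06 and 0.25 ± 0.06, edgeR adjusted p = 0.0318 at 5 DPA). Farsa (0.84 ± 0.07) and Vars (0.81 ± 0.08) rose at 1 DPA.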

How the data were processed

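RNA-seq of mouse islets was analysed in 12 libraries, 4 groups of 3 by their labels. Per the labels' protocols, total RNA came off Qiagen columns and went into a stranded QIAseq kit for mRNA. Per the file headers, the deposited table holds raw counts and, beside them, TPM values that the authors computed. The submitters' processing notes name mm10 as the build. An aligner, a counting tool and any use of strand in counting were not given in the sources used here. The table's 24 other columns of per-sample values were not used.

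Counts were filtered with edgeR's filterByExpr (minimum count 10), which left 17294 of 48709 genes, scaled by TMM and fitted over all 12 libraries with edgeR 4.0.16 (quasi-likelihood, R 4.3.3), with Benjamini-Hochberg adjustment over all genes tested and a threshold of 0.05. The script was tested on simulated data. CPM values are TMM scaled and compare libraries, and TPM compares genes within a library. Marker sums are CPM of the library's total counts without TMM. Alternatives were DESeq2 1.42.0, limma-voom (limma 3.58.1), other scalings, no filter, a replicate block, only the 2 groups compared and leaving out each library. Gene coordinates are from GENCODE M21, in which all 59 members were found. Exons of 24 members overlap those of another gene, and in 11 cases that gene has at least 1000 counts.

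Full statistics were given, against CTRL, for up to 3 called members of smallest p in each role, plus Eef1a1, Eef1a2, Eif1, Eif1a, Eif2s1, Eif2b5, Eif2ak4, Eif3a, Eif4a1, Eif4a2, Eif4e, Eif4g1, Eif4ebp1, Eif5a and Eif6, and between times for the 4 largest called changes in each direction. From 3 to 5 DPA all 5 are named, and other members named beyond the rule were chosen after their values were seen. The members and lists were chosen with earlier results of these data known. Beta, alpha, delta and PP, acinar, duct, macrophage, stromal, endothelial, and T and B cell marker lists were read.

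No label ties a library to an animal of its own, and p-values therefore reflect spread among these samples alone, part of which may be technical. Every pair of replicates differed by more than sampling noise. Replicate numbers in the titles were checked for pairing by the correlation of deviations from group means. Between 3 and 5 DPA the 3 correlations were 0.156, 0.187 and 0.326, all over 0.1. No label links these samples, so weak correlations of this kind do not show that they were paired. The main fit used no pairing, and the replicate block was an alternative to it. In the other pairs of groups not all 3 correlations were over 0.1, and between CTRL and 5 DPA they ran from -0.465 to -0.108.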

Additional observations from a re-analysis of the deposited data

Results flagged for a closer look

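These members' differences from CTRL were not the same at 2 of the times, by the edgeR test of 1 time against another, so CTRL does not enter. From 1 to 3 DPA, log2 values changed by -1.01 for Eif2b3, -0.85 for Eif2b5, -0.54 for Eif5b and -0.50 for Eif4enif1. Over the same interval they changed by 0.40 for Eef2kmt, 0.44 for Eef1a1, 0.48 for Eif2ak2 and 0.56 for Eef1a2.

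From 3 to 5 DPA the changes were -0.55 for Eif5, -0.48 for Eif4e, -0.42 for Eif3a and -0.33 for Eif1. None of these 4 was called without DT 3 DPA replicate 1 or without any 1 of the DT 5 DPA libraries. From 1 to 5 DPA the changes were -1.15 for Eif2b3, -0.89 for Eif2b5, -0.77 for Eif5 and -0.76 for Eif4e. Over that interval they were 0.41 for Eef1a1, 0.41 for Eef1b2, 0.47 for Eef1a2 and 0.56 for Eif2ak2. The Eef1a2 change from 1 to 5 DPA was not called without DT 1 DPA replicate 1 or without DT 5 DPA replicate 1 (edgeR adjusted p up to 0.0655).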

How the results depend on the processing

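Of 70 gene results followed through every alternative, 55 kept their call or lack of call. Of the 45 that were called, 34 kept their call and direction. No named result that was called in the main or the alternative fit changed direction. Changes of sign in results called in neither fit were not counted. The count of members higher at 5 DPA against CTRL (2) was 6 in DESeq2, 4 with library sizes without the 50 most abundant genes, 4 in a fit of only the 2 groups compared, and 0 to 5 when 1 library was left out. The count lower at 5 DPA (0) was 1 in DESeq2 and 0 to 2 with 1 library left out. With library sizes without the 50 most abundant genes, 14 members in place of 23 were lower at 3 than at 1 DPA, and 15 in place of 9 were higher at 5 than at 1 DPA. Those lower at 5 than at 3 DPA (5) were 3 with no filter on low counts and 0 to 6 with 1 library left out. Those higher at 3 DPA against CTRL (15) were 8 to 15 with 1 library left out. With the replicate block, the members higher and lower at 1 DPA numbered 30 and 8, those higher at 3 DPA 14, and those lower at 5 than at 3 DPA 4. Eif5a lost its 1 DPA call (edgeR adjusted p = 0.0578) and Eif4g1 its 3 DPA call (0.0616) under the block. The cause of these differences was not tested beyond the change of setting itself. Each group has 3 libraries, which limits the precision of every test.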
